A study of Homo sapiens with 24 samples.

Results

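Described here are 34 antioxidant, detoxification and NADPH-supply genes linked to the transcription factor NRF2, taken from a list of symbols and matched to the gene identifiers of both count tables of the study. All 34 were found, each as 1 of the 78724 identifiers per table. They comprise 2 regulators (NFE2L2, KEAP1), 5 quinone and carbonyl reductases (NQO1, NQO2, CBR1, CBR3, BLVRB), 2 subunits of the first enzyme of glutathione synthesis (GCLC, GCLM), 6 glutathione-using enzymes (GSR, GPX1, GPX2, GSTP1, GSTM4, MGST1) and 5 thioredoxin and peroxiredoxin genes (TXNRD1, TXN, SRXN1, PRDX1, PRDX6). The others are 6 aldo-keto reductases (AKR1A1, AKR1B1, AKR1B10, AKR1C1, AKR1C2, AKR1C3), 4 genes of NADPH supply (PGD, TKT, TALDO1, ME1) and 4 further detoxification genes (UGDH, EPHX1, ALDH3A1, OSGIN1).

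NRF2, encoded by NFE2L2, is held low by KEAP1, which presents it for degradation until electrophiles or oxidants modify KEAP1. Free NRF2 binds the antioxidant response element and raises genes that reduce quinones and carbonyls, make and use glutathione, drive the thioredoxin system and supply NADPH through the pentose phosphate pathway and malic enzyme. Several carcinomas, those of the biliary tract among them, carry lesions that leave this programme switched on.

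Bulk RNA sequencing was done on 24 libraries from 2 human biliary tract cancer lines. HuCCT1 is an intrahepatic cholangiocarcinoma line, kept in RPMI-1640, and OCUG-1 a gallbladder cancer line, kept in DMEM. The 4 arms of each line were vehicle (DMSO), sorafenib at 1.25 or 10 µM, and the lower sorafenib dose with IACS-010759 at 1 µM added (the combination). Cells were harvested after 72 h, and the 3 libraries of an arm are labelled as independent biological replicates. Sorafenib is a multikinase inhibitor and IACS-010759 inhibits complex I of the mitochondrial respiratory chain. No group received IACS-010759 alone, so its effect was read as the combination against 1.25 µM sorafenib. Line and culture medium differed together and cannot be told apart, and each line stands for 1 cell population.

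Total counts per library ran from 18238834 to 30693736 in HuCCT1 and from 14388855 to 24019011 in OCUG-1. Of 8 biliary epithelial markers, 8 exceeded 10 counts per 1e6 (CPM) on average in HuCCT1 and 6 in OCUG-1; no hepatocyte, immune or endothelial marker did, and of 5 fibroblast markers only COL1A1 did (25.0 and 58.0 CPM). In HuCCT1 the replicate 3 libraries of vehicle, 1.25 µM and 10 µM stood apart: their chi-square against a sister library, divided by its degrees of freedom, was 31.9 to 59.0, where replicates 1 and 2 gave 6.08 to 13.5. Their mitochondrial shares, 7.08%, 12.5% and 8.32%, were the lowest of their arms. Counts from the mitochondrial genome took 10.97% ± 3.56 of HuCCT1 vehicle libraries (SD, n = 3), 17.9% ± 4.83 at 1.25 µM, 9.88% ± 1.63 at 10 µM and 11.4% ± 1.08 in the combination. In OCUG-1 they took 12.2% ± 1.26, 11.1% ± 1.89, 5.95% ± 0.297 and 5.43% ± 0.926 in the same order, so this share was lowest in the arms where most of the 34 genes changed; its part in those results was not tested. All levels below are CPM scaled by trimmed mean of M values (TMM) in 1 fit of the 24 libraries. Fold changes are log2 values ± SE from edgeR's quasi-likelihood test with Benjamini-Hochberg adjustment over all genes tested, and a gene is said to rise or fall where its adjusted p was under 0.05. Values per library are given in the order of replicates 1 to 3. Levels are not corrected for transcript length and are compared only within a gene. In bulk samples a change in the kinds of cells present and a change in RNA per cell cannot be told apart.

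Promoter sequence was available from RefSeq (GRCh38.p14) for 28 of the 34 genes, in 37 entries. The core of the antioxidant response element was searched as TGACNNNGC, or GCNNNGTCA on the other strand, in the 250 bases before the start of transcription. It was present in 10 of the 37 entries (27.0%), which belong to 9 genes, and in 10.9% of all 35116 RefSeq promoters of the same length. Stretches are shown for the 8 of these genes that rose or fell in at least 1 comparison within a line, 5′ to 3′ on the gene's strand, with up to 30 flanking bases and 1 core in capitals. TXNRD1 and KEAP1 each have 2 cores and so 2 stretches, and the KEAP1 stretches overlap. The TXNRD1 cores lie in separate promoter entries. EPHX1 and KEAP1 also have promoter entries without a core, so their stretches stand for only 1 of the starts listed for the gene.
CBR1, chr21:36069835-36069903 (+ strand): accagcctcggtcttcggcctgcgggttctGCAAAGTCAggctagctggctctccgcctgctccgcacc
GCLM, chr1:93909431-93909494 (- strand): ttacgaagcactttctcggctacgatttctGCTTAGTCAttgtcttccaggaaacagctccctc
GSTP1, chr11:67583716-67583784 (+ strand): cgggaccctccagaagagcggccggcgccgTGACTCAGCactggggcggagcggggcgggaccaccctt
TXNRD1, chr12:104286900-104286968 (+ strand): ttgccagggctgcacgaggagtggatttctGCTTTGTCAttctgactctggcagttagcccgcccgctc
TXNRD1, chr12:104215650-104215718 (+ strand): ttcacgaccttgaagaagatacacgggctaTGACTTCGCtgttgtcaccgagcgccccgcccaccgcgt
PGD, chr1:10398833-10398901 (+ strand): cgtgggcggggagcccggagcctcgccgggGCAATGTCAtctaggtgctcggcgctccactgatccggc
ME1, chr6:83431150-83431218 (- strand): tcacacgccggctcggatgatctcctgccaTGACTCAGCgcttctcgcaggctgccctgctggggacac
EPHX1, chr1:225825246-225825314 (+ strand): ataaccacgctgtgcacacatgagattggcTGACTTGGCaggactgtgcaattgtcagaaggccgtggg
KEAP1, chr19:10502787-10502855 (- strand): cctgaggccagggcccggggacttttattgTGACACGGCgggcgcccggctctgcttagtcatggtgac
KEAP1, chr19:10502772-10502832 (- strand): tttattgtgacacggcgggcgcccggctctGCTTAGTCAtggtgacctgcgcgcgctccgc
The cores of GSTP1 and ME1 read TGACTCAGC and also hold the AP-1 site TGACTCA, so the motifs overlap there. These 8 genes did not move as one in OCUG-1: at 10 µM sorafenib CBR1 and KEAP1 rose, GSTP1, TXNRD1, PGD and EPHX1 fell, and GCLM and ME1 had log2 fold changes of 0.34 ± 0.21 (adjusted p = 0.184) and 0.03 ± 0.14 (adjusted p = 0.855). A match is a description of the letters, and binding was not measured.

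Without drug, OCUG-1 cells carried far more of these transcripts than HuCCT1 cells. The largest differences were in the aldo-keto reductases and ALDH3A1: AKR1C2 was higher by 9.40 ± 0.21 (adjusted p = 6.53e-25), AKR1C1 by 8.69 ± 0.29, AKR1B10 by 7.47 ± 0.27, AKR1C3 by 7.25 ± 0.21, ALDH3A1 by 6.13 ± 0.26 and AKR1B1 by 4.75 ± 0.17 on the log2 scale. Of the 34 genes, 27 were higher in OCUG-1 and 3 lower, where 35.6% of all genes tested were higher and 32.7% lower. Their median log2 difference was 1.51, against 0.05 over all genes. The 34 were chosen with earlier results of these data known. In a list of 62 other genes tied to NRF2, described below, 58 were tested. Of those, 29 were higher in OCUG-1 and 14 lower, with a median of 0.27, so the difference was much smaller there. At least 2-fold higher were 22 of the 34, a threshold at which the share of all genes was not counted. All 4 genes of NADPH supply were among them: TKT by 2.07 ± 0.13, TALDO1 by 1.63 ± 0.10, PGD by 1.57 ± 0.15 and ME1 by 1.32 ± 0.16. So were NQO1 by 1.02 ± 0.11, GCLM by 1.64 ± 0.21, TXNRD1 by 1.3 ± 0.16, PRDX1 by 1.96 ± 0.11 and GSR by 2.01 ± 0.10. NFE2L2 itself differed by 0.29 ± 0.14 (adjusted p = 0.0638), which is not a call, while KEAP1 was lower in OCUG-1 by 0.96 ± 0.12 (adjusted p = 4.37e-08). The other genes lower in OCUG-1 were GPX1, by 0.94 ± 0.21, and GSTP1, by 0.49 ± 0.10. The remaining 3 without a call were GPX2, SRXN1 and PRDX6. With a minimum of 1.5-fold 27 of the 30 calls were left (25 higher, 2 lower), and the share of all genes was not counted at that minimum either. The 30 were kept in every other alternative tried.

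The summed share of each library's counts shows the scale of this difference. In HuCCT1 the 34 genes took 0.321% ± 0.0104 of counts with vehicle (SD, n = 3), 0.343% ± 0.0204 at 1.25 µM, 0.404% ± 0.00468 at 10 µM and 0.412% ± 0.00882 in the combination. In OCUG-1 they took 1.501% ± 0.0613, 1.28% ± 0.0675, 0.688% ± 0.0681 and 0.695% ± 0.0278. The OCUG-1 share thus dropped stepwise from vehicle to 1.25 µM to 10 µM, and the HuCCT1 share was higher at 10 µM and in the combination than with vehicle. For 1.25 µM in HuCCT1 the order depends on the scaling: the TMM-scaled sum of the 34 was 3309 to 3512 CPM with vehicle, 3945 to 4055 at 1.25 µM, 4041 to 4254 at 10 µM and 4124 to 4341 in the combination, so that every 1.25 µM library lay above every vehicle library. The 6 aldo-keto reductases alone took 0.690% ± 0.0187 of OCUG-1 vehicle counts, 0.490% ± 0.0350 at 1.25 µM, 0.160% ± 0.0298 at 10 µM and 0.159% ± 0.00664 in the combination. In HuCCT1 the same 6 genes took 0.0111% ± 0.000690 with vehicle and 0.0148% ± 0.000968 at 10 µM. The 4 NADPH-supply genes took 0.279% ± 0.0149 of OCUG-1 counts with vehicle and 0.106% ± 0.0162 at 10 µM, against 0.0679% ± 0.00482 and 0.0722% ± 0.00237 in HuCCT1. These shares are sums with no test of their own.

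**Figure D1:**
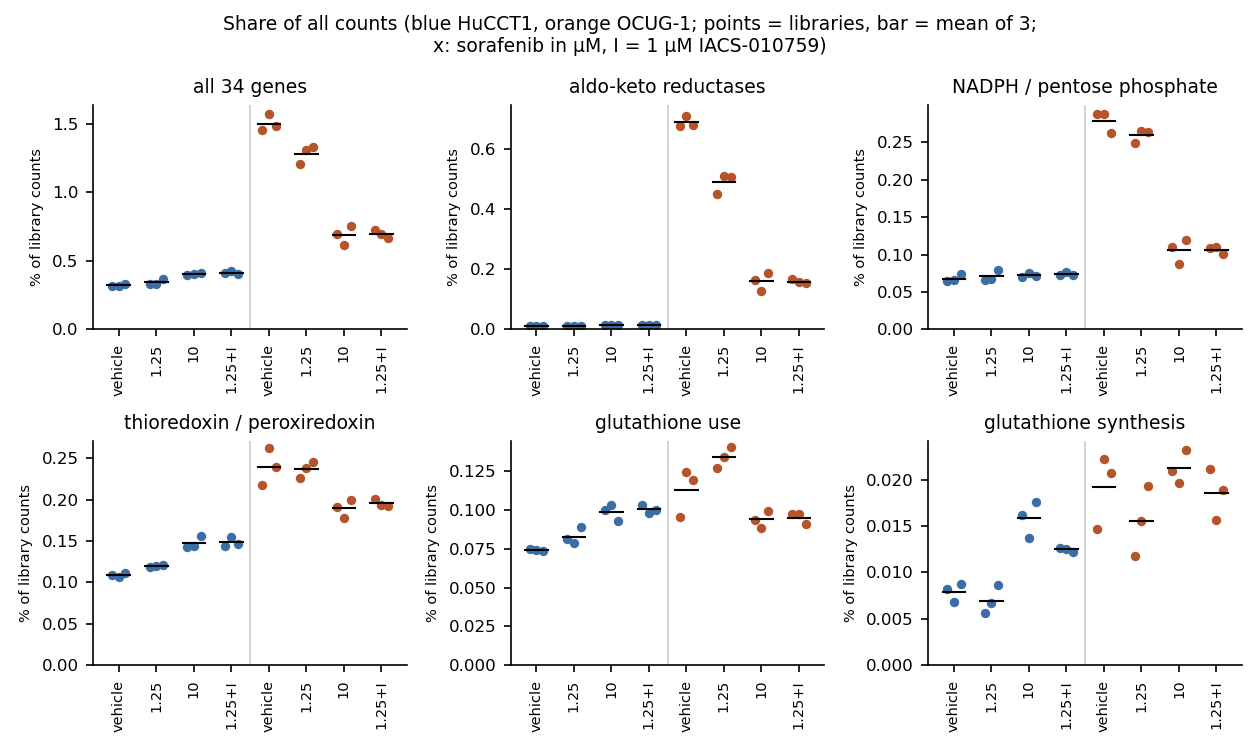
Share of each library's total counts (%, y axis) taken by the 34 genes and by functions among them, for the 8 groups (x axis), with means over 3 libraries. For the 34 genes the OCUG-1 vehicle mean is 1.5% and the OCUG-1 means for 10 µM and the combination are 0.688% and 0.695%. The HuCCT1 means lie between 0.321% and 0.412%.

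In HuCCT1, 10 µM sorafenib and the combination, each against vehicle, raised members of every function but the regulators. At 1.25 µM 8 of 34 genes rose and 2 fell, where 9.98% and 8.50% of all 19576 genes tested did. The risers were CBR3, PRDX1, TXN, CBR1, NQO1, NQO2, TALDO1 and MGST1, and NFE2L2 and UGDH fell. At 10 µM 14 rose and 0 fell (background 13.0% and 11.2%), among them both subunits of glutamate-cysteine ligase and 4 aldo-keto reductases; the median of the 34 was 0.33, against 0.01 over all genes. In the combination against vehicle 17 rose and 0 fell (background 9.94% and 10.1%), with a median of 0.41. Against 1.25 µM sorafenib the combination raised 6, namely GCLC, TXNRD1, AKR1B10, AKR1C1, AKR1C3 and UGDH, and lowered 0 (background 5.06% and 6.57%). At 10 µM against 1.25 µM 12 were higher and 6 lower (background 14.4% and 13.7%); the 6 lower genes were KEAP1, NQO1, CBR3, GSTP1, TXN and PRDX1. Of these the PRDX1 call was kept in 3 of 13 alternatives (highest adjusted p 0.409), that of TXN in 7 of 13 and that of CBR3 in 8 of 13.

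Beside the counts of 0 lower genes, an unadjusted p under 0.05 held for 3 lower genes at 10 µM, 1 in the combination against vehicle and 0 against 1.25 µM, and DESeq2 called 0 in each. At 10 µM 1 lower gene was called with no filter on low counts, and without vehicle replicate 2 or 10 µM replicate 2. The same held without the replicate 3 libraries that stood apart. The 6 calls of the combination against 1.25 µM became 3 without 1.25 µM replicate 1 or 2 or combination replicate 2, and 16 (13 higher, 3 lower) without the replicate 3 libraries that stood apart. Calls over all genes went from 2276 to 1097, 877, 1053 and 6851 in the same order. The 17 of the combination against vehicle became 11 without vehicle replicate 1 or combination replicate 1 or 3, as calls over all genes went from 3931 to 2500, 2353 and 2342. The 18 of the dose comparison became 11 without 1.25 µM replicate 1, where calls over all genes went from 5518 to 3567. When TMM factors were dropped and libraries scaled by size only, this shifted the median of all genes by -0.15 at 1.25 µM, by 0.19 for the combination against 1.25 µM and by 0.18 for the dose comparison. With it the share of higher genes among all calls went from 54.0% to 26.7%, from 43.5% to 82.4% and from 51.2% to 77.5%, and the members split as 6 higher and 3 lower, 11 and 0, and 14 and 1.

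In OCUG-1 the direction was the opposite at 10 µM and in the combination: most members fell. The largest falls at 10 µM were those of AKR1C2, ALDH3A1, AKR1B10 and TKT, and in the combination against 1.25 µM those of AKR1B10, AKR1C2, TKT and AKR1B1. At 10 µM 19 of the 33 genes tested fell and 7 rose, where 30.7% and 32.4% of all 20511 genes did, and their median was -0.46 against 0.00. GPX2 did not pass the count filter in this line. The 7 risers were KEAP1, CBR1, GPX1, SRXN1, PRDX1, UGDH and OSGIN1. Against vehicle the combination lowered 19 and raised 4 (background 28.1% and 31.5%), the risers being KEAP1, SRXN1, UGDH and OSGIN1. The 4 risers became 2 without vehicle replicate 1 or combination replicate 1, where SRXN1 and UGDH lost their calls (highest adjusted p 0.29 and 0.218), and library size scaling alone gave 7 up and 17 down. Against 1.25 µM sorafenib the combination lowered 22 and raised 4 (background 26.7% and 31.4%), with a median of -0.52 against 0.06, and the same 4 genes rose. At 10 µM against 1.25 µM 20 were lower and 5 higher (background 29.0% and 31.6%). At 1.25 µM alone only 7 genes changed, 3 up (PRDX1, MGST1, BLVRB) and 4 down (ALDH3A1, AKR1C2, NFE2L2, GCLC), beside a background of 5.92% and 4.61%. While calls over all genes went from 2160 to 802 and 653 in turn, those 7 calls became 4 without vehicle replicate 3 or 1.25 µM replicate 2. With library size scaling alone they split as 1 up and 5 down, as the share of higher genes among all calls went from 56.2% to 28.8%; this scaling moved the all-gene median by 0.15 for the combination against 1.25 µM, where the members then split as 4 up and 18 down, and by 0.12 between the doses. The comparisons with vehicle share the vehicle libraries, and those with 1.25 µM share that arm.

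**Figure D2:**
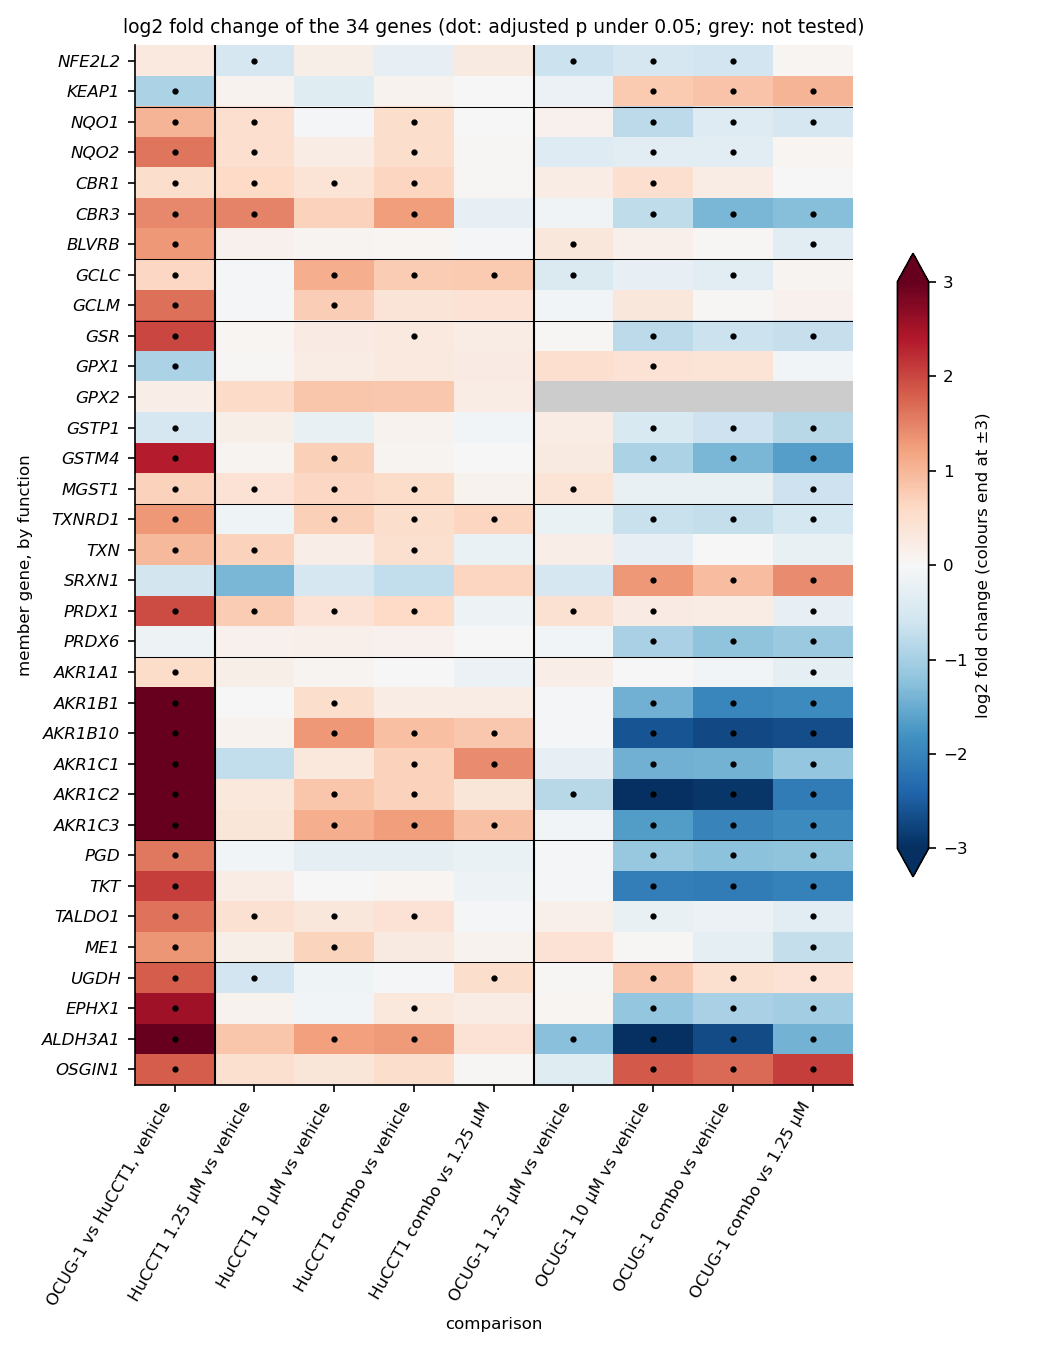
Log2 fold changes (colour) of the 34 genes (rows, by function) in the comparisons within each line (columns), with the called values marked. The OCUG-1 columns for 10 µM and the combination are mostly on the falling side, led by AKR1C2 at -3.43 and ALDH3A1 at -3.15 for 10 µM, while the HuCCT1 columns hold mostly rises.

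The NFE2L2 transcript fell in OCUG-1 in every treated arm, and KEAP1 rose there in 2 of them. NFE2L2 in HuCCT1 read 109, 100.5 and 126 CPM with vehicle, 67.0, 78.8 and 92.5 at 1.25 µM, 125, 105 and 151 at 10 µM, and 90.03, 104 and 91.7 in the combination. The 1.25 µM libraries all lay below the vehicle libraries, and the gene fell by 0.49 ± 0.14 (adjusted p = 0.024) there, a call that ended without vehicle replicate 1 or 3 or 1.25 µM replicate 1 or 2 (highest adjusted p 0.117). At 10 µM the range overlapped vehicle and the log2 fold change was 0.18 ± 0.14 (adjusted p = 0.383). NFE2L2 in OCUG-1 read 131, 146 and 132 CPM with vehicle, 81.2, 93.8 and 95.0 at 1.25 µM, 98.4, 76.0 and 102 at 10 µM, and 100.1, 78.5 and 79.5 in the combination. Every treated library lay below every vehicle library. The gene fell by 0.63 ± 0.12 (adjusted p = 0.00413) at 1.25 µM, by 0.50 ± 0.12 at 10 µM and by 0.58 ± 0.12 in the combination. The transcript level does not report the NRF2 protein, which is set mainly by KEAP1-dependent degradation.

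KEAP1, the substrate adaptor that recruits NRF2 to a ubiquitin ligase, rose in OCUG-1. Its values there were 30.6, 31.6 and 29.9 CPM with vehicle, 26.6, 27.9 and 28.1 at 1.25 µM, 46.9, 53.7 and 51.3 at 10 µM, and 59.3, 47.2 and 49.3 in the combination. The 10 µM and combination libraries lay above all vehicle and 1.25 µM libraries. KEAP1 rose by 0.79 ± 0.10 (adjusted p = 2.44e-06) at 10 µM and by 1.03 ± 0.10 (adjusted p = 1.53e-07) in the combination against 1.25 µM. In HuCCT1 it read 55.4, 53.4 and 70.0 CPM with vehicle, 60.1, 61.4 and 71.7 at 1.25 µM, 47.9, 51.8 and 39.9 at 10 µM, and 64.1, 70.1 and 56.8 in the combination. The 10 µM libraries were the lowest there, with -0.36 ± 0.13 (adjusted p = 0.0544) against vehicle, and lower than 1.25 µM by 0.47 ± 0.13 (adjusted p = 0.0129), a call lost without 10 µM replicate 3 and with library size scaling alone (highest adjusted p 0.125).

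**Figure D3:**
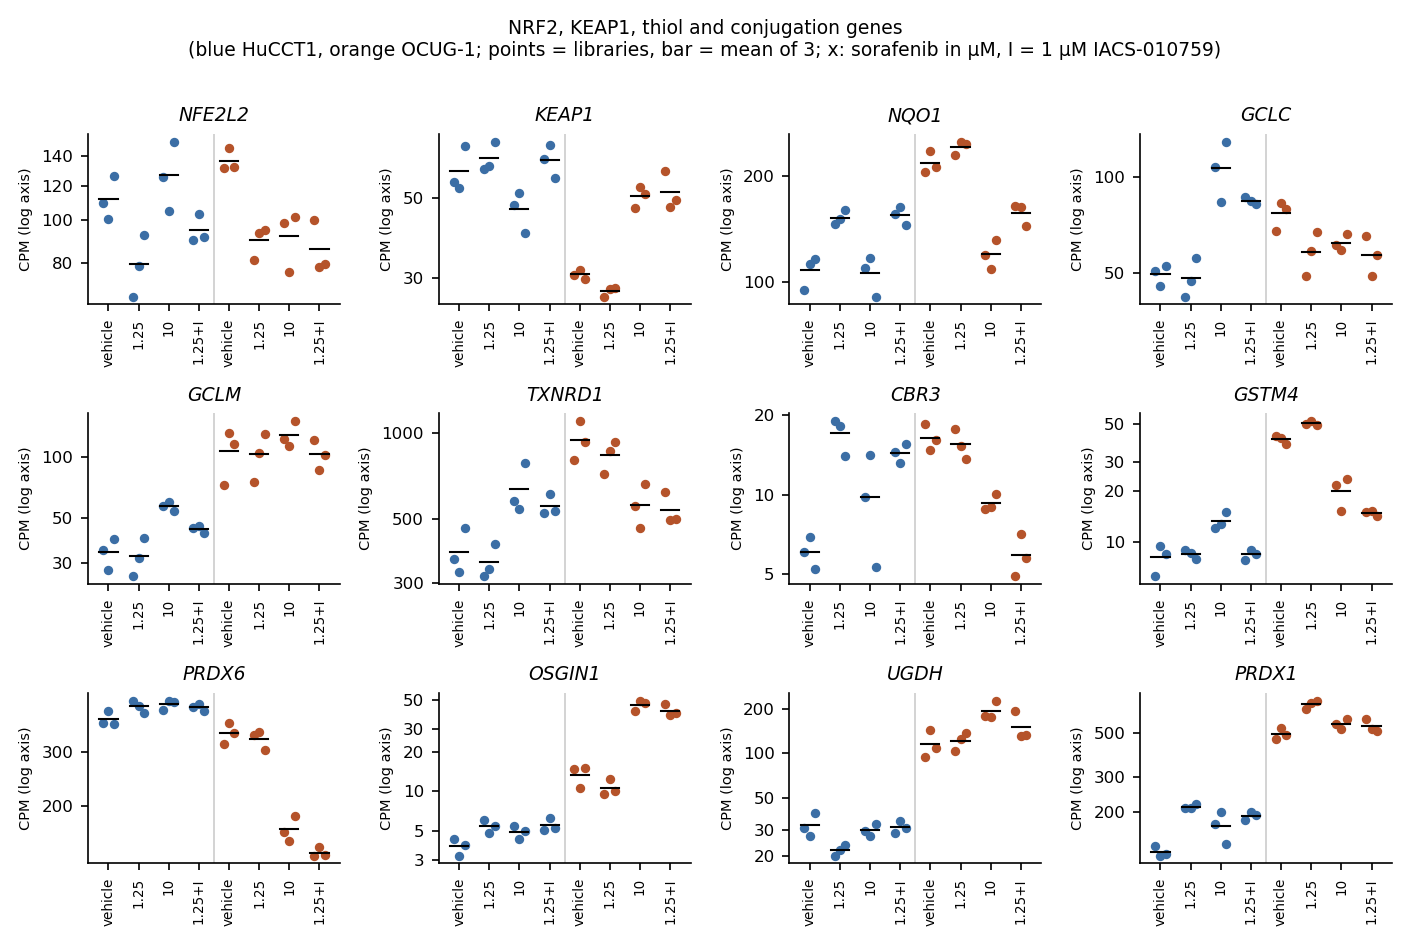
TMM-scaled CPM (y axes, log scale) of 12 genes in each of the 24 libraries, with HuCCT1 in blue, OCUG-1 in orange and a bar at the mean of 3. KEAP1 and OSGIN1 are higher in OCUG-1 at 10 µM and in the combination, where PRDX6 and GSTM4 are lower. Among the HuCCT1 arms, the means of GCLC and GCLM are highest at 10 µM.

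Among the quinone and carbonyl reductases 4 of 5 rose in HuCCT1 at 1.25 µM and 3 of 5 fell in OCUG-1 at 10 µM, where 9.98% and 30.7% of all genes tested did. NQO1, the two-electron quinone reductase widely used as a readout of NRF2, in HuCCT1 read 95.0, 113 and 116 CPM with vehicle, 147, 151 and 160.1 at 1.25 µM, 109.8, 117 and 91.1 at 10 µM, and 157, 164 and 145 in the combination. The 1.25 µM and combination libraries stood above the vehicle libraries and the 10 µM libraries did not. NQO1 rose by 0.50 ± 0.11 (adjusted p = 0.00588) at 1.25 µM and by 0.53 ± 0.11 (adjusted p = 0.00345) in the combination against vehicle, with -0.03 ± 0.11 (adjusted p = 0.893) at 10 µM. In OCUG-1 NQO1 read 206, 237 and 213 CPM with vehicle, 229.8, 251 and 248 at 1.25 µM, 119, 109 and 132 at 10 µM, and 165, 163 and 145 in the combination. It fell by 0.79 ± 0.10 (adjusted p = 2.00e-06) at 10 µM and by 0.38 ± 0.10 (adjusted p = 0.00314) in the combination against vehicle, with no overlap of the libraries in either case.

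CBR3, a carbonyl reductase of quinones and anthracyclines, had the largest called change of the 34 genes in HuCCT1 at the low dose. It read 6.05, 6.93 and 5.21 CPM with vehicle, 19.0, 18.2 and 14.0 at 1.25 µM, 9.81, 14.2 and 5.33 at 10 µM, and 14.5, 13.2 and 15.6 in the combination. It rose by 1.5 ± 0.25 (adjusted p = 0.00108) at 1.25 µM and by 1.26 ± 0.25 (adjusted p = 0.00242) in the combination, with every library above vehicle. At 10 µM replicate 3 lay within the vehicle range and replicates 1 and 2 above it, and the log2 fold change was 0.69 ± 0.25 (adjusted p = 0.0568). In OCUG-1 CBR3 read 18.5, 14.8 and 16.1 CPM with vehicle, 17.8, 15.3 and 13.7 at 1.25 µM, 8.79, 9.01 and 10.0 at 10 µM, and 4.90, 7.07 and 5.76 in the combination. It fell by 0.76 ± 0.15 (adjusted p = 3.25e-04) at 10 µM and by 1.27 ± 0.16 (adjusted p = 2.36e-06) in the combination against 1.25 µM. An antisense gene overlaps 42.2% of the CBR3 exon bases on the other strand, and whether counting used strand is not given in the sources used here. CBR1, its neighbour on chromosome 21, rose in HuCCT1 by 0.61 ± 0.12 at 1.25 µM, 0.41 ± 0.12 at 10 µM and 0.64 ± 0.12 in the combination, and in OCUG-1 by 0.49 ± 0.10 at 10 µM. It was thus the reductase that rose at 10 µM in both lines, although the HuCCT1 call at 10 µM ended without vehicle replicate 3 or 10 µM replicate 2 (highest adjusted p 0.0953). NQO2 rose in HuCCT1 by 0.50 ± 0.13 at 1.25 µM and fell in OCUG-1 by 0.35 ± 0.14 at 10 µM. Both calls depended on single libraries: the first ended without vehicle replicate 1 or 1.25 µM replicate 1 or 2 (highest adjusted p 0.073) and the second without vehicle replicate 1 or 3 or 10 µM replicate 1 or 3 (highest adjusted p 0.187). BLVRB, which reduces biliverdin and flavins, rose in OCUG-1 at 1.25 µM by 0.33 ± 0.09, a call kept in 4 of 12 alternatives; leaving out any 1 of the 6 libraries ended it.

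Both subunits of the rate-limiting enzyme of glutathione synthesis rose in HuCCT1 at 10 µM, and neither was called in OCUG-1 at that dose. GCLC, the catalytic subunit of glutamate-cysteine ligase, in HuCCT1 read 50.8, 45.7 and 52.6 CPM with vehicle, 42.3, 47.3 and 55.7 at 1.25 µM, 107, 83.6 and 129 at 10 µM, and 86.3, 83.7 and 82.1 in the combination. All 10 µM and combination libraries were above all vehicle and 1.25 µM libraries. GCLC rose by 1.10 ± 0.14 (adjusted p = 4.05e-05) at 10 µM and by 0.79 ± 0.14 (adjusted p = 0.00162) in the combination against 1.25 µM. GCLM, the modifier subunit, in HuCCT1 read 34.9, 27.7 and 39.4 CPM with vehicle, 25.9, 31.6 and 39.9 at 1.25 µM, 57.1, 60.05 and 54.0 at 10 µM, and 44.9, 45.6 and 42.1 in the combination. It rose by 0.74 ± 0.14 (adjusted p = 0.00131) at 10 µM, and in the combination its difference from 1.25 µM was 0.44 ± 0.14 (adjusted p = 0.0566). In OCUG-1 GCLC read 67.8, 83.0 and 79.4 CPM with vehicle, 49.1, 58.7 and 67.0 at 1.25 µM, 61.2, 59.0 and 66.1 at 10 µM, and 65.1, 49.0 and 57.0 in the combination. Its log2 fold change was -0.23 ± 0.12 (adjusted p = 0.102) at 10 µM, and it fell by 0.43 ± 0.12 (adjusted p = 0.0343) at 1.25 µM, a call that ended without vehicle replicate 2 or 3 or 1.25 µM replicate 1 or 2 (highest adjusted p 0.125). GCLM in OCUG-1 read 72.9, 131 and 116 CPM with vehicle, 74.8, 104 and 129 at 1.25 µM, 122, 113 and 149.5 at 10 µM, and 121, 86.3 and 102 in the combination. Its vehicle replicate 1 lay far below the other 2 and its arms overlapped, with 0.34 ± 0.21 (adjusted p = 0.184) at 10 µM.

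Of the glutathione-using enzymes, 3 of 5 tested fell and 1 rose in OCUG-1 at 10 µM, beside 30.7% and 32.4% of all genes. There GSTM4, a mu-class glutathione S-transferase, read 43.0, 41.5 and 38.5 CPM with vehicle, 50.2, 52.3 and 49.9 at 1.25 µM, 21.8, 15.2 and 23.5 at 10 µM, and 15.0, 15.3 and 14.3 in the combination. It fell by 0.95 ± 0.13 (adjusted p = 5.31e-06) at 10 µM and by 1.66 ± 0.14 (adjusted p = 1.08e-08) in the combination against 1.25 µM, with no overlap. In HuCCT1 GSTM4 read 6.24, 9.47 and 8.48 CPM with vehicle, 8.96, 8.60 and 7.86 at 1.25 µM, 12.04, 12.8 and 15.0 at 10 µM, and 7.80, 8.99 and 8.46 in the combination. Only the 10 µM libraries stood above vehicle, and GSTM4 rose by 0.72 ± 0.16 (adjusted p = 0.00384) there. GSR, which regenerates reduced glutathione with NADPH, had an OCUG-1 mean of 151 ± 6.11 CPM (SD, n = 3) with vehicle and 83.8 ± 9.12 CPM at 10 µM, and fell by 0.78 ± 0.11 (adjusted p = 6.50e-06). GSTP1, the pi-class transferase, fell in OCUG-1 by 0.46 ± 0.10 at 10 µM and by 0.84 ± 0.11 in the combination against 1.25 µM. MGST1, a membrane-bound transferase and peroxidase, rose in HuCCT1 by 0.62 ± 0.11 at 10 µM and 0.55 ± 0.11 in the combination against vehicle, and in OCUG-1 fell by 0.63 ± 0.12 in the combination against 1.25 µM. GPX1, the selenoprotein that reduces hydrogen peroxide, rose in OCUG-1 at 10 µM by 0.44 ± 0.18, a call that ended without vehicle replicate 1 or 10 µM replicate 1, 2 or 3 (highest adjusted p 0.205). GPX2, the gastrointestinal peroxidase, was near the counting floor, at 0.225 to 0.340 CPM in HuCCT1 and 0.118 to 0.569 CPM in OCUG-1 vehicle libraries.

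In the thioredoxin system, TXNRD1 moved in opposite directions in the 2 lines. TXNRD1, the cytosolic selenoprotein that reduces thioredoxin with NADPH, in HuCCT1 read 361, 327 and 466 CPM with vehicle, 316, 335 and 410.1 at 1.25 µM, 578, 544 and 784 at 10 µM, and 524, 610.1 and 535 in the combination. The 10 µM and combination libraries were all above the vehicle libraries. It rose by 0.72 ± 0.16 (adjusted p = 0.00307) at 10 µM and by 0.65 ± 0.16 (adjusted p = 0.0142) in the combination against 1.25 µM, the latter call ending without 1.25 µM replicate 1 or 2 or combination replicate 2 (highest adjusted p 0.0728). In OCUG-1 TXNRD1 read 807, 1099 and 932 CPM with vehicle, 720.1, 868 and 926 at 1.25 µM, 557, 466 and 664 at 10 µM, and 622, 495 and 501 in the combination. It fell by 0.68 ± 0.14 (adjusted p = 4.47e-04) at 10 µM and by 0.52 ± 0.14 (adjusted p = 0.00462) in the combination against 1.25 µM. PRDX6, a one-cysteine peroxiredoxin, in OCUG-1 read 317, 372 and 344 CPM with vehicle, 339.7, 346 and 305 at 1.25 µM, 165, 154 and 185 at 10 µM, and 138, 147 and 138 in the combination. Its 10 µM and combination libraries lay far below the rest, and it fell by 0.96 ± 0.10 (adjusted p = 2.09e-07) and, against 1.25 µM, by 1.11 ± 0.10 (adjusted p = 5.61e-08). In HuCCT1 PRDX6 had a log2 fold change of 0.16 ± 0.09 (adjusted p = 0.238) at 10 µM.

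PRDX1, a two-cysteine peroxiredoxin, rose at 1.25 µM in both lines, by 0.75 ± 0.12 (adjusted p = 5.58e-04) in HuCCT1 and by 0.47 ± 0.10 (adjusted p = 0.00675) in OCUG-1. Its mean went from 127 ± 7.51 to 214 ± 6.35 CPM in HuCCT1 and from 494 ± 29.8 to 697 ± 35.4 CPM in OCUG-1 (SD, n = 3). At 10 µM PRDX1 rose by 0.43 ± 0.12 in HuCCT1, a call ending without 10 µM replicate 2 (highest adjusted p 0.0687), and by 0.24 ± 0.10 in OCUG-1, a call ending without vehicle replicate 1 or 3 or 10 µM replicate 1 or 3 (highest adjusted p 0.133). TXN, the thioredoxin itself, rose in HuCCT1 at 1.25 µM by 0.68 ± 0.16 (adjusted p = 0.00804), a call that ended without 1.25 µM replicate 1 (adjusted p = 0.0501). SRXN1, which repairs overoxidised peroxiredoxins, in OCUG-1 read 1.12, 2.07 and 1.93 CPM with vehicle, 0.702, 1.51 and 1.415 at 1.25 µM, 3.90, 3.22 and 4.96 at 10 µM, and 4.75, 2.26 and 2.19 in the combination. It rose by 1.3 ± 0.34 (adjusted p = 0.00252) at 10 µM and by 1.43 ± 0.36 (adjusted p = 0.00226) in the combination against 1.25 µM, with all libraries of the treated arm above those of the comparison arm. These levels are low, and they are uncertain: another annotated gene on the same strand covers 85.0% of the SRXN1 exon bases.

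The aldo-keto reductases, NADPH-dependent enzymes that reduce aldehydes, ketones and steroids, had the largest line difference in response of the 8 functions by median (-2.44 at 10 µM, OCUG-1 minus HuCCT1). In OCUG-1 5 of 6 fell at 10 µM, with a median of -1.56, beside 30.7% of all genes tested. In the combination against 1.25 µM 6 of 6 fell there, beside 26.7%. In HuCCT1 4 of 6 rose at 10 µM and 3 rose in the combination against 1.25 µM, beside 13.0% and 5.06%. AKR1C2, a 3-alpha-hydroxysteroid dehydrogenase, in OCUG-1 read 3404, 2978 and 2973 CPM with vehicle, 2133, 1774 and 1496 at 1.25 µM, 313, 211 and 299 at 10 µM, and 344, 421 and 399 in the combination. The 4 arms did not overlap one another, and it was the only aldo-keto reductase of the 6 to fall at 1.25 µM. It fell by 0.82 ± 0.15 (adjusted p = 0.00291) at 1.25 µM, by 3.43 ± 0.17 (adjusted p = 1.34e-11) at 10 µM and by 2.1 ± 0.16 (adjusted p = 4.00e-09) in the combination against 1.25 µM. AKR1C1 in OCUG-1 read 941, 1443 and 1249.8 CPM with vehicle, 722, 1232 and 1189 at 1.25 µM, 397, 332 and 541 at 10 µM, and 517, 384 and 389 in the combination. Its 1.25 µM libraries overlapped vehicle and its 10 µM and combination libraries did not, with a fall of 1.45 ± 0.22 (adjusted p = 5.52e-05) at 10 µM. AKR1C3, a 17-beta-hydroxysteroid dehydrogenase, in OCUG-1 read 472, 543 and 472 CPM with vehicle, 434, 477 and 514 at 1.25 µM, 151, 107 and 183 at 10 µM, and 133, 123 and 96.3 in the combination. It fell by 1.68 ± 0.16 (adjusted p = 9.01e-08) at 10 µM. AKR1C1 and AKR1C2 share 11.3% and 21.2% of their 150-base transcript windows with each other or AKR1C3, so reads between these paralogs may be split or dropped by the counting. AKR1B10, which reduces retinal and other aldehydes, in OCUG-1 read 380.1, 441 and 421 CPM with vehicle, 313, 433 and 473 at 1.25 µM, 69.0, 43.6 and 83.9 at 10 µM, and 67.9, 62.1 and 48.8 in the combination. It fell by 2.59 ± 0.21 (adjusted p = 7.08e-08) at 10 µM and by 2.65 ± 0.21 (adjusted p = 8.49e-08) in the combination against 1.25 µM. AKR1B1, the aldose reductase, in OCUG-1 read 1196, 1368 and 1219 CPM with vehicle, 1039, 1334 and 1411 at 1.25 µM, 442, 337 and 556 at 10 µM, and 323, 314 and 283 in the combination. It fell by 1.43 ± 0.15 (adjusted p = 2.18e-07) at 10 µM and by 1.92 ± 0.15 (adjusted p = 1.00e-08) in the combination against 1.25 µM. For all of AKR1C3, AKR1B10 and AKR1B1 the 1.25 µM libraries overlapped vehicle and the 10 µM libraries lay wholly below.

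In HuCCT1 these 5 reductases each rose in at least 1 comparison. AKR1B10 read 2.08, 2.76 and 2.22 CPM with vehicle, 2.01, 2.74 and 2.76 at 1.25 µM, 6.26, 7.15 and 3.74 at 10 µM, and 4.73, 4.64 and 3.82 in the combination. It rose by 1.29 ± 0.24 (adjusted p = 0.001) at 10 µM. AKR1C3 read 2.65, 3.16 and 3.99 CPM with vehicle, 3.88, 4.43 and 4.26 at 1.25 µM, 6.70, 8.23 and 6.01 at 10 µM, and 9.39, 6.36 and 7.47 in the combination. It rose by 1.10 ± 0.20 (adjusted p = 9.99e-04) at 10 µM and by 1.25 ± 0.20 (adjusted p = 4.28e-04) in the combination against vehicle. Both had all 10 µM and combination libraries above all vehicle libraries. AKR1C1 read 3.21, 1.92 and 3.54 CPM with vehicle, 2.07, 1.56 and 1.68 at 1.25 µM, 3.92, 3.70 and 3.18 at 10 µM, and 4.93, 5.05 and 4.02 in the combination. It rose in the combination against 1.25 µM by 1.41 ± 0.24 (adjusted p = 0.0015), with 0.31 ± 0.23 (adjusted p = 0.353) at 10 µM. AKR1C2 read 4.95, 5.47 and 3.45 CPM with vehicle, 6.42, 5.65 and 5.28 at 1.25 µM, 7.31, 8.70 and 8.51 at 10 µM, and 7.63, 6.77 and 7.84 in the combination. It rose by 0.82 ± 0.18 (adjusted p = 0.00341) at 10 µM. The levels reached, at most 9.39 CPM for AKR1C3, stayed below the lowest OCUG-1 library of any arm, 96.3 CPM. AKR1B1 read 39.9, 46.0 and 54.5 CPM with vehicle, 46.6, 41.2 and 52.7 at 1.25 µM, 65.2, 62.6 and 74.1 at 10 µM, and 55.1, 56.5 and 52.1 in the combination. It rose by 0.52 ± 0.12 (adjusted p = 0.00514) at 10 µM. In the combination against 1.25 µM, AKR1B10 rose by 0.80 ± 0.24 and AKR1C3 by 0.88 ± 0.20. The AKR1B10 call ended without 1.25 µM replicate 1 or 2 or combination replicate 1, 2 or 3 (highest adjusted p 0.16), and the AKR1C3 call without combination replicate 1 (highest adjusted p 0.0668). AKR1A1, the broadly expressed aldehyde reductase, had calls only in the vehicle comparison of the lines and in OCUG-1 for the combination against 1.25 µM, where it fell by 0.29 ± 0.10 and the call ended without 1.25 µM replicate 2 or combination replicate 2 (highest adjusted p 0.252).

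**Figure D4:**
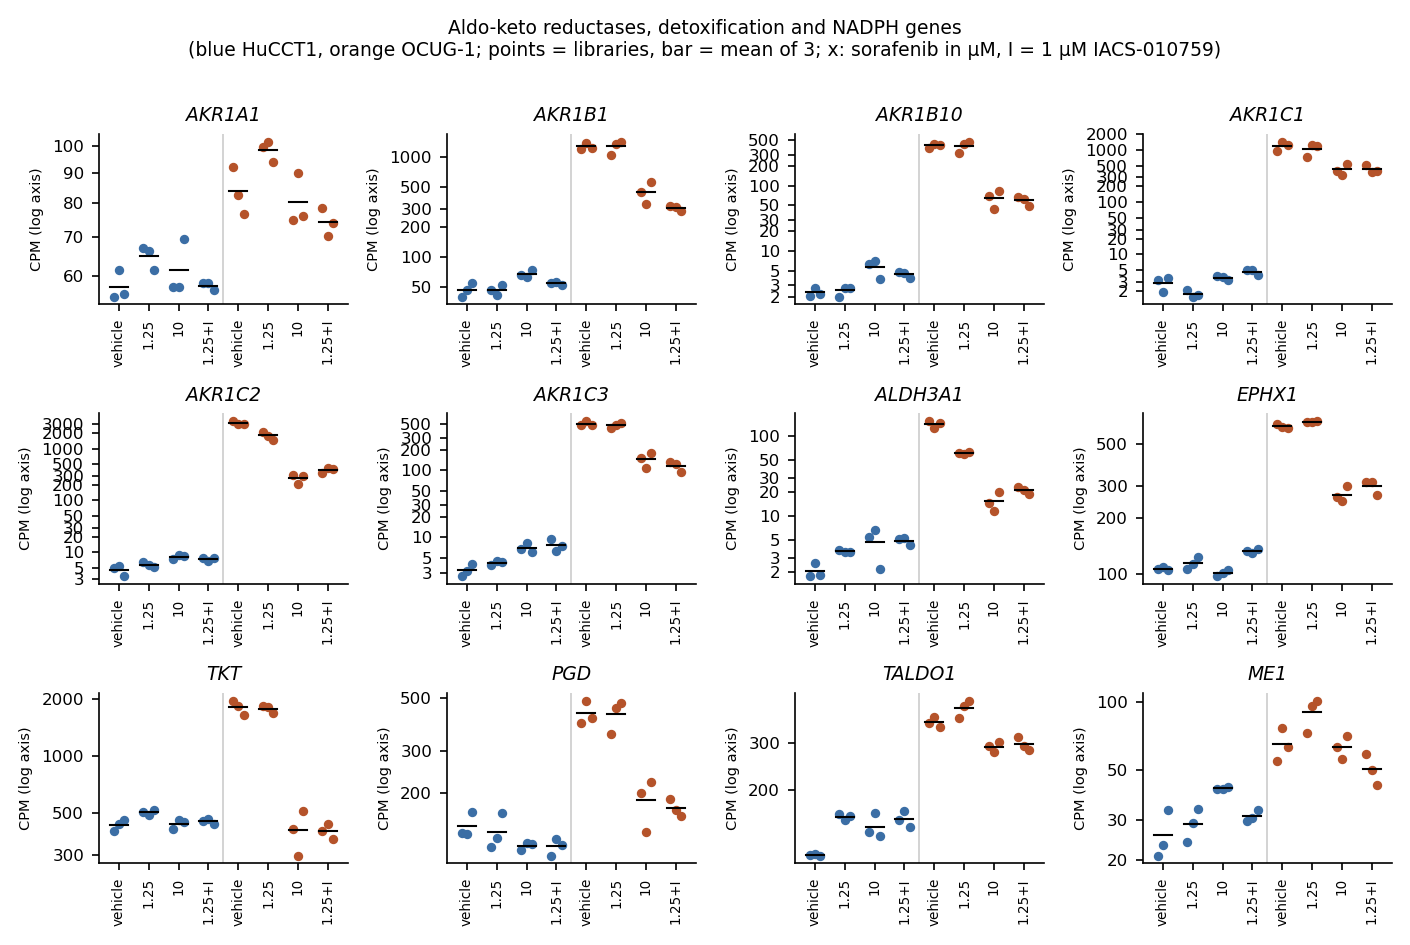
TMM-scaled CPM (y axes, log scale) of aldo-keto reductase, NADPH-supply and detoxification genes in each of the 24 libraries, with HuCCT1 in blue, OCUG-1 in orange and a bar at the mean of 3. In OCUG-1 most genes shown drop at 10 µM and in the combination, as for TKT from at least 1646 to at most 512 CPM. AKR1A1 and ME1 had no call there at 10 µM, and the TALDO1 fall was kept in no alternative. No gene shown falls in HuCCT1 at 10 µM by the test.

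Of the NADPH-supply genes, the pentose phosphate genes TKT and PGD fell most in OCUG-1. PGD, an NADPH-making dehydrogenase of the oxidative branch, in OCUG-1 read 392, 488 and 414 CPM with vehicle, 354, 455 and 478 at 1.25 µM, 199.95, 137 and 222 at 10 µM, and 188, 169 and 159 in the combination. TKT, the transketolase that links the pathway back to glycolysis, read 1954, 1839 and 1646 CPM with vehicle, 1834, 1802 and 1681 at 1.25 µM, 413, 297 and 512 at 10 µM, and 399, 438 and 363 in the combination. For both genes every 10 µM and combination library lay below every vehicle and 1.25 µM library. PGD fell by 1.14 ± 0.15 (adjusted p = 4.95e-06) at 10 µM and by 1.20 ± 0.16 (adjusted p = 3.80e-06) in the combination against 1.25 µM. TKT fell by 2.08 ± 0.15 (adjusted p = 1.93e-09) and 2.03 ± 0.15 (adjusted p = 4.17e-09) in the same comparisons. At 1.25 µM alone the differences were -0.04 ± 0.15 for PGD and -0.06 ± 0.15 for TKT, and neither was called. In HuCCT1 PGD read 135, 134 and 166 CPM with vehicle, 118, 129 and 165 at 1.25 µM, 115, 123 and 122 at 10 µM, and 109, 128 and 121 in the combination. In the same cells TKT read 400.4, 437 and 459 CPM with vehicle, 503, 487 and 518 at 1.25 µM, 413, 456 and 447 at 10 µM, and 456, 465 and 435 in the combination. No within-line call was made for either gene in HuCCT1, with -0.28 ± 0.12 and 0.02 ± 0.09 at 10 µM. TALDO1, the transaldolase of the non-oxidative branch, rose in HuCCT1 by 0.47 ± 0.10 (adjusted p = 0.00436) at 1.25 µM and 0.44 ± 0.10 (adjusted p = 0.0047) in the combination against vehicle. In OCUG-1 its fall of 0.23 ± 0.10 (adjusted p = 0.0453) at 10 µM was kept in none of 12 alternatives (highest adjusted p 0.151), while that of 0.32 ± 0.10 (adjusted p = 0.00714) in the combination against 1.25 µM ended only with library size scaling alone (adjusted p = 0.115). ME1, the cytosolic malic enzyme, rose in HuCCT1 at 10 µM by 0.68 ± 0.15 (adjusted p = 0.00373) and fell in OCUG-1 in the combination against 1.25 µM by 0.71 ± 0.15 (adjusted p = 4.26e-04).

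The other detoxification genes split by gene. ALDH3A1, an aldehyde dehydrogenase, in OCUG-1 read 154, 126 and 147 CPM with vehicle, 61.2, 59.3 and 63.5 at 1.25 µM, 14.4, 11.7 and 19.98 at 10 µM, and 23.2, 21.0 and 18.8 in the combination. Vehicle, 1.25 µM and 10 µM formed 3 separate levels. It fell by 1.25 ± 0.14 (adjusted p = 4.49e-05) at 1.25 µM, by 3.15 ± 0.15 (adjusted p = 1.34e-11) at 10 µM and by 1.43 ± 0.15 (adjusted p = 1.86e-07) in the combination against 1.25 µM. In HuCCT1 ALDH3A1 read 1.78, 2.59 and 1.81 CPM with vehicle, 3.81, 3.58 and 3.54 at 1.25 µM, 5.48, 6.69 and 2.16 at 10 µM, and 5.24, 5.30 and 4.31 in the combination. It rose by 1.24 ± 0.31 (adjusted p = 0.00778) at 10 µM, although replicate 3 lay within the vehicle range. In the HuCCT1 combination it rose by 1.28 ± 0.31 (adjusted p = 0.0076) against vehicle. EPHX1, the microsomal epoxide hydrolase, in OCUG-1 read 647, 618 and 610.2 CPM with vehicle, 660.0, 661 and 668 at 1.25 µM, 259.9, 248 and 296 at 10 µM, and 315, 315 and 266 in the combination. It fell by 1.15 ± 0.10 (adjusted p = 1.99e-08) at 10 µM and by 1.03 ± 0.10 (adjusted p = 1.10e-07) in the combination against 1.25 µM, without overlap. In HuCCT1 EPHX1 had -0.08 ± 0.09 (adjusted p = 0.581) at 10 µM. OSGIN1, an oxidative stress-induced growth inhibitor, in OCUG-1 read 14.7, 10.6 and 15.0 CPM with vehicle, 9.57, 12.4 and 10.0 at 1.25 µM, 41.0, 49.3 and 47.0 at 10 µM, and 46.6, 38.0 and 39.7 in the combination. It rose by 1.84 ± 0.14 (adjusted p = 3.29e-09) at 10 µM and by 2.06 ± 0.14 (adjusted p = 1.70e-09) in the combination against 1.25 µM, the largest rises of the 33 genes tested in OCUG-1 in those comparisons. In HuCCT1 OSGIN1 stayed between 3.21 and 6.24 CPM in all 12 libraries, with no call. UGDH, which makes the UDP-glucuronate used in glucuronidation, rose in OCUG-1 at 10 µM by 0.82 ± 0.17 (adjusted p = 5.16e-04), from 115 ± 25.3 to 194 ± 28.2 CPM (SD, n = 3). In HuCCT1 UGDH fell by 0.57 ± 0.13 (adjusted p = 0.00886) at 1.25 µM, and its rise of 0.52 ± 0.13 (adjusted p = 0.0209) in the combination against 1.25 µM ended without 1.25 µM replicate 1 or 2 or combination replicate 2 or 3 (highest adjusted p 0.0994).

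Whether the lines differed in their response was tested directly, as OCUG-1 minus HuCCT1 in 1 fit of 24 libraries. At 10 µM 23 of the 34 genes had a lower response in OCUG-1 and 3 a higher one (background 23.1% and 20.7%), with a median of -0.88 against -0.06 over all genes. These 23 include GPX2 (-2.47 ± 0.96, adjusted p = 0.0376), which lies near the counting floor and did not pass the filter in OCUG-1 alone. For 8 of these 26 the gene rose in HuCCT1 and fell in OCUG-1: GSTM4, TXNRD1, AKR1B1, AKR1B10, AKR1C2, AKR1C3, TALDO1 and ALDH3A1, with differences of -4.47 ± 0.34 (adjusted p = 1.50e-10) for ALDH3A1, -4.33 ± 0.23 (adjusted p = 1.61e-14) for AKR1C2 and -3.97 ± 0.33 (adjusted p = 1.58e-09) for AKR1B10. The TALDO1 rise in HuCCT1 at 10 µM ended without vehicle replicate 1 or 10 µM replicate 2 (highest adjusted p 0.0833), and the TALDO1 fall in OCUG-1 was kept in no alternative. Over all genes tested 13.0% rose in HuCCT1 and 30.7% fell in OCUG-1 at 10 µM, and how many did both was not counted. The 3 with a higher response in OCUG-1 were KEAP1, UGDH and OSGIN1. For added IACS-010759, 21 genes had a lower response in OCUG-1 and 2, KEAP1 and OSGIN1, a higher one (background 20.2% and 18.6%). TXNRD1, AKR1B10, AKR1C1 and AKR1C3 rose in HuCCT1 and fell in OCUG-1. Of all genes tested 5.06% rose in HuCCT1 and 26.7% fell in OCUG-1 with it added, and how many did both was not counted. At 1.25 µM sorafenib 5 genes, NQO2, CBR3, AKR1C2, ALDH3A1 and OSGIN1, had a lower response in OCUG-1 and 0 a higher one (background 4.69% and 4.96%); for a higher response edgeR gave 1 gene at an unadjusted p under 0.05 and DESeq2 called 1. The OSGIN1 difference at 1.25 µM was kept in 10 of 19 alternatives (highest adjusted p 0.0893) and ended without HuCCT1 vehicle replicate 2 or 3 or HuCCT1 1.25 µM replicate 1 or OCUG-1 vehicle replicate 1 or 3 or OCUG-1 1.25 µM replicate 1 or 3.

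**Figure D5:**
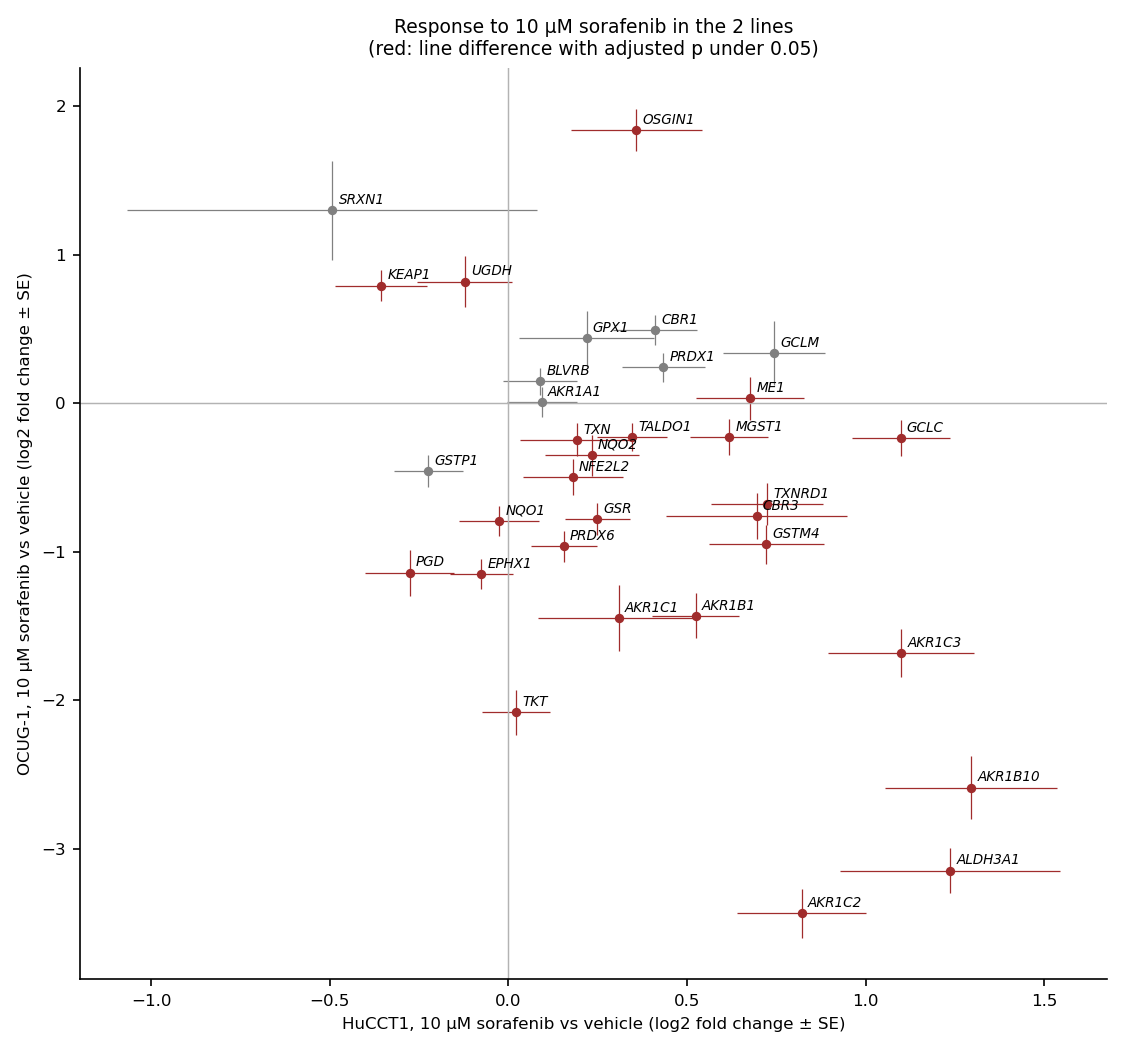
Log2 fold change at 10 µM sorafenib against vehicle in HuCCT1 (x axis) and OCUG-1 (y axis) for the 33 genes tested in both lines, with bars of ± SE; red points have a line difference with adjusted p under 0.05. AKR1B10, ALDH3A1, AKR1C2 and AKR1C3 lie at the lower right, rising in HuCCT1 and falling in OCUG-1, and OSGIN1 lies at the top at 1.84 in OCUG-1.

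Other genes tied to NRF2 came from a list of 62 that excludes the 34. In OCUG-1 at 10 µM 16 of 58 tested rose and 22 fell, with a median of -0.16, and in the combination against 1.25 µM 15 rose and 30 fell. Of all genes 32.4% rose and 30.7% fell in the first comparison and 31.4% and 26.7% in the second. SLC7A11, the cystine carrier that feeds glutathione synthesis, in OCUG-1 read 59.3, 74.8 and 79.5 CPM with vehicle, 38.4, 47.1 and 51.0 at 1.25 µM, 104, 117 and 103 at 10 µM, and 174, 144 and 145 in the combination. It fell by 0.68 ± 0.13 (adjusted p = 0.00321) at 1.25 µM and rose by 0.67 ± 0.12 (adjusted p = 1.26e-04) at 10 µM and by 1.88 ± 0.13 (adjusted p = 1.33e-09) in the combination against 1.25 µM. Its partner SLC3A2 rose in OCUG-1 by 2.75 ± 0.12 (adjusted p = 2.67e-12) at 10 µM, SESN2, a stress-inducible sestrin, by 2.36 ± 0.12, and ABCC2, an exporter of glutathione conjugates, fell by 2.82 ± 0.16. HMOX1, the inducible haem oxygenase, was higher in the OCUG-1 combination than at 1.25 µM by 0.74 ± 0.10 (adjusted p = 7.50e-06), and at 10 µM differed from vehicle by -0.15 ± 0.10. In HuCCT1 12 of 56 rose and 6 fell at 10 µM, beside 13.0% and 11.2% of all genes; PIR, an iron-containing nuclear protein, rose by 0.94 ± 0.12 (adjusted p = 5.96e-05) and ABCC3, an organic anion exporter, fell by 0.94 ± 0.12 (adjusted p = 5.09e-05).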

How the data were processed

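Total RNA from 24 libraries was sequenced as read pairs. The authors deposited a table of raw, whole-number counts by Ensembl identifier for each line. The tools named in the submitters' processing notes include fastp 1.3.2, HISAT2 2.2.2 and featureCounts of Subread 2.1.1, with the build GRCh38. The strand option, gene annotation and rule for multi-mapping reads were not given in the sources used here. Beside CBR3, genes on the other strand overlap 24.9% of the PRDX1, 18.9% of the CBR1 and 17.7% of the NQO1 exon bases. Beside SRXN1, genes on the same strand overlap 17.6% of the NFE2L2 and 13.9% of the OSGIN1 exon bases. Whether this affected their counts was not tested. Per the labels, extra runs of 4 unnamed OCUG-1 libraries were treated as technical replicates. Depth was 14388855 to 30693736 counts per library, so replicate spread outweighs counting error: chi-square between replicates, over its degrees of freedom, was 4.89 to 59.0.

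Symbols were matched through the gene name table given (61481 of 78724 identifiers matched), and exon overlaps through GENCODE release 29. The tests were two-sided robust quasi-likelihood F tests of edgeR 4.0.16 (R 4.3.3) after TMM scaling and filterByExpr with a minimum count of 10. Each line was fitted alone (12 libraries), and contrasts between lines came from a joint fit (24 libraries). Standard errors were derived from the F statistic. The steps were tested on simulated data. Alternatives were DESeq2 1.42.0, other scaling, no filter, a fold minimum of 1.5, a replicate block, fits of the compared groups only, each library left out, and, chosen after seeing the data, 3 HuCCT1 replicate 3 libraries left out together. All 34 genes could be named; values per library are given for NFE2L2, KEAP1, NQO1, GCLM, TXNRD1 and genes called with at least a 2-fold change. Of the wider list, HMOX1, SLC7A11 and up to 3 called genes of smallest adjusted p per comparison could be named. A further gene of that list is not reported here. The 34 genes and all lists were chosen with earlier results of these data known.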

Additional observations from a re-analysis of the deposited data

Results flagged for a closer look

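Differences in response between the lines, as OCUG-1 minus HuCCT1 on the log2 scale with SE, came from the interaction contrasts of edgeR's quasi-likelihood test over 24 libraries, 3 per group. At 1.25 µM sorafenib they were -2.06 ± 0.35 (adjusted p = 5.19e-04) for ALDH3A1, -1.58 ± 0.30 (adjusted p = 0.00105) for CBR3, -1.12 ± 0.23 (adjusted p = 0.00255) for AKR1C2, -0.86 ± 0.19 (adjusted p = 0.00519) for NQO2 and -0.80 ± 0.23 (adjusted p = 0.0256) for OSGIN1. CBR3 and NQO2 rose in HuCCT1 and were not called in OCUG-1, ALDH3A1 and AKR1C2 fell in OCUG-1 and were not called in HuCCT1, and OSGIN1 was called in neither line alone.

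At 10 µM, 8 genes rose in HuCCT1 and fell in OCUG-1. How many of all genes did so was not counted, here or for added IACS-010759. The largest differences were -4.47 ± 0.34 (adjusted p = 1.50e-10) for ALDH3A1, -4.33 ± 0.23 (adjusted p = 1.61e-14) for AKR1C2, -3.97 ± 0.33 (adjusted p = 1.58e-09) for AKR1B10 and -2.85 ± 0.26 (adjusted p = 7.57e-10) for AKR1C3. AKR1B1 differed by -2.03 ± 0.20 (adjusted p = 3.44e-09), GSTM4 by -1.75 ± 0.21 (adjusted p = 5.25e-08), TXNRD1 by -1.47 ± 0.22 (adjusted p = 4.45e-06) and TALDO1 by -0.64 ± 0.13 (adjusted p = 2.48e-04). For added IACS-010759, 4 genes rose in HuCCT1 and fell in OCUG-1: AKR1B10 with -3.57 ± 0.34 (adjusted p = 1.60e-08), AKR1C3 with -2.90 ± 0.25 (adjusted p = 6.98e-10), AKR1C1 with -2.70 ± 0.36 (adjusted p = 1.88e-06) and TXNRD1 with -1.29 ± 0.22 (adjusted p = 3.64e-05). Line and medium differ together in each of these contrasts.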

How the results depend on the processing

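Of 256 called results of single members over the 14 comparisons, 204 kept their call in every alternative other than the fold minimum, 52 lost it in at least 1 of those and none reversed. Of 209 recomputed counts of called members, 194 were within 1.5 times the original and 15 were not. Counting only changes of at least 1.5-fold left 4 of 10 calls at 1.25 µM, 9 of 17 in the combination against vehicle and 9 of 18 between the doses in HuCCT1, and 3 of 7 at 1.25 µM in OCUG-1. This minimum removes small changes by construction, and calls over all genes were not counted with it. For the HuCCT1 combination against 1.25 µM, 6 calls became 11 with library size scaling alone and 16 without the 3 HuCCT1 replicate 3 libraries that stood apart. Calls over all genes went from 2276 to 3156 and 6851 there, so the members did not move alone. The cause was not tested. Leaving out 1 library at a time gave 3 to 8 calls in that comparison, 11 to 16 for the HuCCT1 combination against vehicle, 11 to 17 between the HuCCT1 doses and 4 to 8 for OCUG-1 at 1.25 µM. Over all genes these runs gave 877 to 3224, 2342 to 3293, 3472 to 6284 and 653 to 2558 calls in the same order. The fits with every library gave 2276, 3931, 5518 and 2160. The replicate numbers were not taken as pairs, since the correlation of same-numbered libraries after removal of group means was not over 0.1 in every pair: it ran from -0.131 to 0.396 (median 0.0505) in HuCCT1 and from -0.196 to 0.244 (median -0.0295) in OCUG-1, and 6 of 12 and 3 of 12 correlated best with their own number. With the replicate block the calls were 12 (from 10) at 1.25 µM, 15 (from 14) at 10 µM and 7 (from 6) in the combination against 1.25 µM in HuCCT1, and 5 (from 7), 24 (from 26) and 24 (from 26) in OCUG-1. Over all genes the block moved the calls from 3616 to 4295 and from 4747 to 5201 at the 2 doses in HuCCT1, where replicate 3 of 3 arms stood apart, and from 2160 to 1520 and from 12943 to 12604 in OCUG-1. Depth limits GPX2, with under 1 CPM, and SRXN1.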
